A study of Mus musculus with 11 samples.

Results

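Small nucleolar RNA host genes are transcribed as long noncoding RNAs whose introns carry small nucleolar RNAs (snoRNAs). The 8 genes described here, Gas5, Snhg1, Snhg3, Snhg4, Snhg5, Snhg6, Snhg8 and Snhg12, were taken by symbol from a count table of 55291 genes, and all 8 were found. All 8 passed the filter on low counts in each comparison, so none was lost to it. The cells were mouse embryonic stem cells whose FACT subunit SPT16 could be degraded with auxin. After 24 hours of auxin 7 of the 8 were lower, with log2 fold changes between -2.39 and -0.39. Over all 17904 genes tested, 28.1% were called lower and 29.3% higher. The call on Snhg3, at -0.39, was lost when counts were scaled by library totals alone (-0.06). Snhg5 fell most, and Snhg8 did not pass the test.

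E14 cells were kept feeder-free in serum with LIF, a GSK3 inhibitor and a MEK inhibitor. SPT16 was fused at its C terminus to a V5 tag and to an auxin-inducible degron (AID) in the tagged lines, which are coded 10E and 11D and were targeted independently. The groups were tagged cells given 500 nM indole-3-acetic acid (IAA, the auxin) for 24 hours (3 libraries, 1 of line 10E and 2 of line 11D), tagged cells given the solvent ethanol (EtOH) for the same time (4 libraries, 2 of each line), and an untagged line given IAA (3 libraries). Untagged cells given EtOH were not analysed here, so within the tagged lines an effect of IAA itself cannot be told apart from that of SPT16 degradation. The labels do not say whether libraries of 1 line came from separate cultures, so the p-values measure the spread between these libraries, which may be technical.

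When such a host transcript is spliced, the snoRNA is trimmed out of its intron and guides the chemical modification of ribosomal RNA. C/D snoRNAs guide 2′-O-methylation and H/ACA snoRNAs guide pseudouridylation. The spliced host RNA is short-lived, since several hosts are degraded by nonsense-mediated decay, and many hosts start at a 5′ terminal oligopyrimidine (TOP) tract, as the messages of ribosomal proteins do. FACT is the histone chaperone of SPT16 and SSRP1 that takes nucleosomes apart and restores them as RNA polymerase passes.

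The starts of these genes and the snoRNAs they carry are shown first, because they are what the host genes share beside their name. RefSeq promoters on GRCm38.p6 are shown for 6 of the 8 genes, with 7 starts in all, since Gas5 has a pair of them. Each line gives 45 bases before the annotated start and 30 from it onwards, 5′ to 3′ on the gene's strand. Capitals mark TATAAA or TATATA beginning 40 to 15 bases before the start. They also mark a run of at least 5 pyrimidines, counted from a C within 10 bases of the start. That C may itself follow a pyrimidine, as it follows a T at Snhg5, Snhg8 and Snhg12.
Gas5, upstream start, chr1:161034556-161034630, plus strand: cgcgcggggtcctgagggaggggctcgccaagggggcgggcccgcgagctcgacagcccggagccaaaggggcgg
Gas5, downstream start, chr1:161035121-161035195, plus strand: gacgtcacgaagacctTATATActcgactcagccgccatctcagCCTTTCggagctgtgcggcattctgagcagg
Snhg1, chr19:8723442-8723516, plus strand: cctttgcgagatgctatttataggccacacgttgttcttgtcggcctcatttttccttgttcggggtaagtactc
Snhg3, chr4:132353657-132353731, minus strand: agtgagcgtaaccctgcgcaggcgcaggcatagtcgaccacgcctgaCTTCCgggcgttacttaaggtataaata
Snhg5, chr9:88522868-88522942, minus strand: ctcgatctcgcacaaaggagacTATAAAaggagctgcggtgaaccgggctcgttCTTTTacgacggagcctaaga
Snhg8, chr3:123508307-123508381, minus strand: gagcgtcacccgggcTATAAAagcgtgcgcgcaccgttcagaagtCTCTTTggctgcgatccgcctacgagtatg
Snhg12, chr4:132308633-132308707, plus strand: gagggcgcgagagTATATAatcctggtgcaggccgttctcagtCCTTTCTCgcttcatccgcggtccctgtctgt

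One of the TATA letter strings stood in the searched window of 4 of the 7 starts, those of Gas5 (downstream), Snhg5, Snhg8 and Snhg12, beginning 23 to 32 bases before the start. Among all 32851 RefSeq promoters of the same length, 2.73% held one on the gene's strand in that window. The pyrimidine run, counted from a C whatever base precedes it, was present at 5 of the 7 starts, against 30.7% of all promoters. Both features were present at 4 of the 7, against 0.968%. Only the runs of Gas5 (downstream) and Snhg3 open with their C, since a T precedes it at Snhg5, Snhg8 and Snhg12. The share of all promoters under that stricter reading was not counted. Snhg1 and the upstream start of Gas5 had neither, and the TATA letters of Snhg3 lie after its annotated start, outside the window. These are matches of letters near annotated starts, searched on the gene's strand, and no binding was measured. Snhg8, the member whose fall did not pass the test, and Snhg5, the member that fell most, both had the pair of features. No RefSeq promoter was found for Snhg6. The start of Snhg4 was left out of this reading, so its features are not known here.

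The snoRNAs within these genes fall into both families. Gas5 held 9 snoRNA genes by symbol in GENCODE M21 and Snhg1 held 8, those with a class name all being C/D snoRNAs (Snord). Snhg5 carries Snord50a and Snord50b, and Snhg6 carries Snord87. The remaining hosts carry H/ACA snoRNAs (Snora): Snora73a and Snora73b in Snhg3, Snora24 in Snhg8, and Snora16a, Snora44 and Snora61 in Snhg12, which also holds Snord99. The snoRNAs of the most and the least affected hosts are printed from GENCODE M21 transcripts, with the C box (TGATGA) and the D box (CTGA) in capitals where they lie in the first or last 15 bases, and the ACA box in capitals where it lies in the last 8.
Snord50a, chr9:88521529-88521600, minus strand, host Snhg5: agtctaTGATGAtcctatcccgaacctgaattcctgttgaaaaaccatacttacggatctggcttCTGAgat
Snord50b, chr9:88521797-88521868, minus strand, host Snhg5: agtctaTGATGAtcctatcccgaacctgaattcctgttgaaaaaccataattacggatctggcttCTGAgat
Snora24, chr3:123507937-123508066, minus strand, host Snhg8: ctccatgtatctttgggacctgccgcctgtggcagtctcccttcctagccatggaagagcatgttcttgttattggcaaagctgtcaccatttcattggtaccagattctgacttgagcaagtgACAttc

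The counts speak to the host transcripts and hardly at all to the snoRNAs themselves. Of 28 snoRNA rows inside the members, 25 held no count in any library. Levels are given in CPM, counts divided by the library total after scaling. Snora73b had a mean of 60.1 CPM under IAA and 54.9 CPM under EtOH, a log2 fold change of 0.12 ± 0.25 (SE) that did not pass the test (adjusted p = 0.703, edgeR). Snora73a, at 1.57 CPM under IAA and 2.08 CPM under EtOH, did not pass either, and Snord87 was too low to be tested, at 0.16 CPM under IAA and 0.85 CPM under EtOH. In the annotation most of these snoRNAs lie inside exons of some transcript model of their host, so a read there can count for either gene or for none, depending on the counter.

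Libraries held between 3100127 and 13510163 counts, and the 8 members together between 1202 and 10063 counts. CPM were scaled by the trimmed mean of M values (TMM), whose factors were 1.13 to 1.19 under IAA and 0.884 to 0.982 under EtOH. With library totals alone in place of TMM, the median log2 fold change of all genes moved to 0.36, against 0.03 with TMM, and the calls over the 17904 genes tested moved to 2851 lower (15.9%) and 7713 higher (43.1%). The RNA of Supt16, which encodes SPT16, fell by 0.50 ± 0.09 on the log2 scale, and that of Ssrp1, its partner in FACT, fell by 1.08 ± 0.09 (edgeR adjusted p = 0.000154 and 8.00e-08). With library totals Supt16 was at -0.17 and not called (edgeR adjusted p = 0.0992), while Ssrp1 was still called lower. The degron acts on protein, which these files do not measure. Summed over 5 embryonic stem cell markers, levels were 1050 to 1090 CPM under IAA and 2890 to 3860 CPM under EtOH, and all 5 were called lower. The summed primitive endoderm markers were 11.7 to 17.3 CPM and 3.42 to 8.77 CPM in those groups and the fibroblast markers 15.8 to 19.7 CPM and 21.6 to 34.4 CPM. Of the primitive endoderm markers Dab2 and Pdgfra were called higher, Gata4 and Gata6 did not pass, and Sox17 was too low to be tested. Of the fibroblast markers only Pdgfrb was called, lower, at 12.4 CPM under IAA and 23.6 CPM under EtOH. Col1a1, Col1a2 and Thy1 did not pass, and the others were too low to be tested. The trophectoderm markers summed to 29.1 to 38.8 CPM under IAA and 20.2 to 36.5 CPM under EtOH. Of these 5, Krt8 and Gata3 were called higher, Eomes was called lower, Cdx2 did not pass, and Elf5 had 1 count in all 10 libraries together, in an EtOH library. Mitochondrial transcripts took 2.45% to 3.16% of counts under IAA and 1.67% to 2.26% under EtOH. The part of cell identity and of RNA quality in the falls below was not tested, and in bulk samples fewer cells of a type and less RNA per cell cannot be told apart.

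The first comparison asked how host RNA differed after IAA within the tagged lines. Of the 8 members 7 fell and none rose in edgeR's quasi-likelihood test at a false discovery rate of 0.05, with line as a term. Over all 17904 genes tested, 28.1% were called lower and 29.3% higher. The median log2 fold change was -1.15 over the members and 0.03 over all genes. In each of the 7, no IAA library reached the lowest EtOH library. The share of all genes that separate in this way is not given here, so this count has no background.

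**Figure D1:**
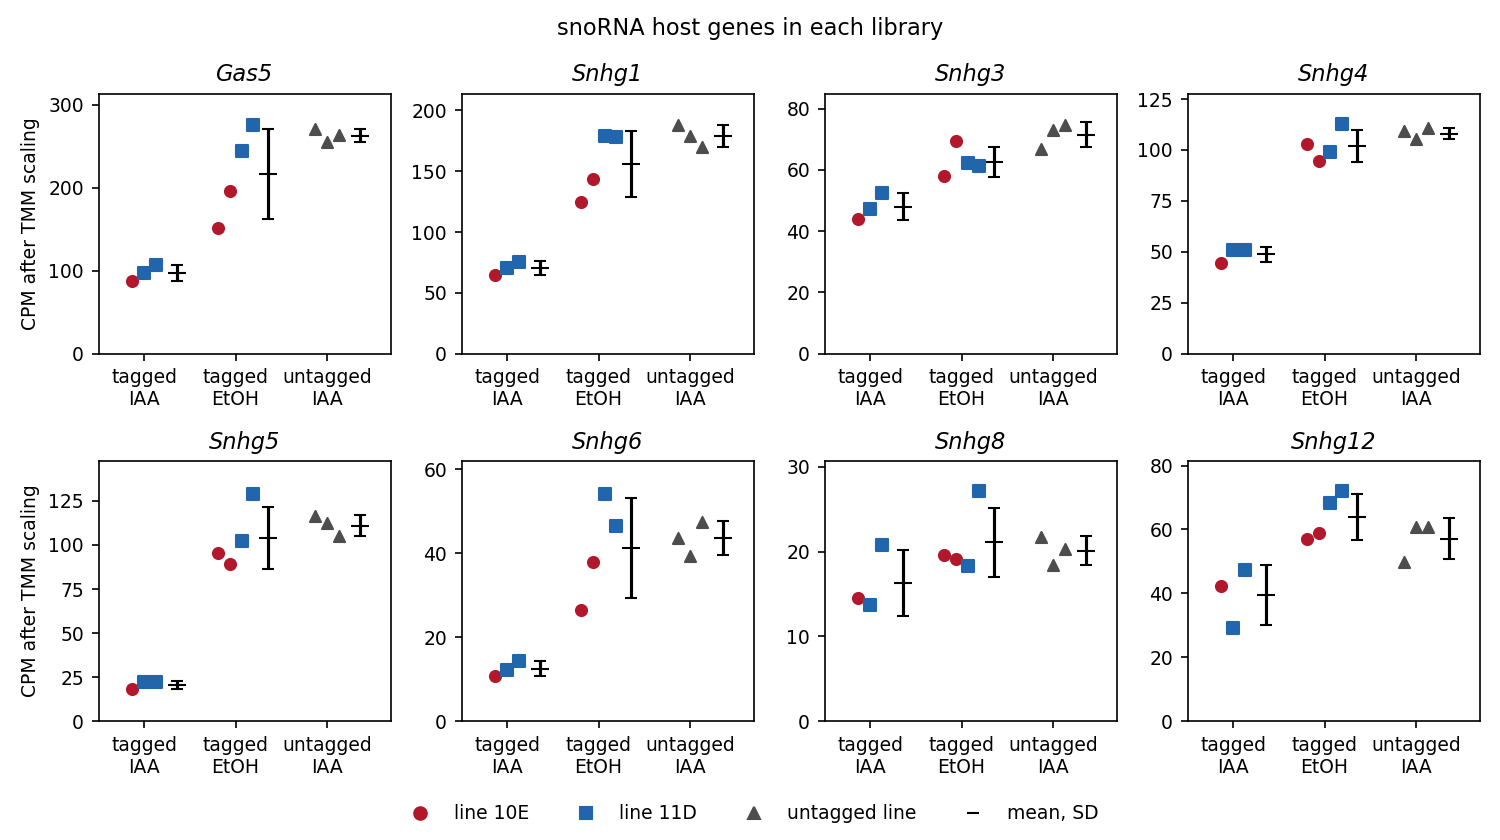
Level of each host gene in every library, in CPM after TMM scaling on a linear axis from 0. Points are libraries by line (circles 10E, squares 11D, triangles untagged), and bars are the mean and SD of the tagged IAA, tagged EtOH and untagged IAA groups. The 3 IAA libraries of the tagged lines lie below all EtOH libraries for every gene but Snhg8. How many of all genes separate in this way was not counted.

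Snhg5 hosts Snord50a and Snord50b and was the member that fell most. It stood at 18 CPM in the 10E IAA library and at 21.9 and 22.1 CPM in the 11D IAA libraries. Under EtOH it stood at 95.5 and 89.1 CPM in line 10E and at 102 and 129 CPM in line 11D. The groups lie far apart in both lines, and the untagged IAA libraries, at 117, 112 and 105 CPM, lie among the EtOH ones. The log2 fold change was -2.39 ± 0.12 (SE), which is 0.191 of the EtOH level (edgeR adjusted p = 8.22e-10).

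Snhg6, the host of Snord87, was the next. It had 10.7 CPM in the 10E IAA library and 12.3 and 14.4 CPM in the 11D IAA libraries. Under EtOH it had 26.5 and 37.8 CPM in line 10E and 54.2 and 46.5 CPM in line 11D. Line 11D was higher than line 10E under EtOH, and both lines were low under IAA. The untagged IAA libraries had 43.7, 39.4 and 47.5 CPM. The log2 fold change of IAA over EtOH was -1.79 ± 0.16 (edgeR adjusted p = 1.79e-07). Of its exon bases 127 overlap Mcmdc2 on the opposite strand, a gene with a mean of 2.1 CPM under IAA and 2.79 CPM under EtOH.

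Gas5, named for its accumulation in growth-arrested cells and described in human cells as a decoy for the glucocorticoid receptor, has the most reads of the 8. It stood at 88.2 CPM in the 10E IAA library and at 96.9 and 107 CPM in the 11D IAA libraries. Under EtOH it stood at 152 and 197 CPM in line 10E and at 245 and 276 CPM in line 11D. The IAA libraries lie close together while the EtOH libraries are spread by line. The untagged IAA libraries, at 271, 255 and 264 CPM, are level with line 11D under EtOH. The log2 fold change was -1.21 ± 0.11 (edgeR adjusted p = 2.53e-07).

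Snhg1, the host of Snord22 and of 7 further snoRNAs, behaved much as Gas5 did. It had 64.3 CPM in the 10E IAA library and 70.7 and 75.7 CPM in the 11D IAA libraries. Its EtOH libraries had 124 and 144 CPM in line 10E and 179 and 178 CPM in line 11D. The untagged IAA libraries, at 188, 179 and 170 CPM, again match line 11D under EtOH. The log2 fold change was -1.20 ± 0.10 (edgeR adjusted p = 5.37e-08).

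Snhg4, the host of Snora74a, lies at 35553410 to 35558316 of chromosome 18 in RefSeq on GRCm38.p6. Its level was 44.5 CPM in the 10E IAA library and 50.7 and 51.0 CPM in the 11D IAA libraries. Under EtOH the level was 103 and 94.5 CPM in line 10E and 99.0 and 113 CPM in line 11D. Both lines fell by about the same amount, and the untagged IAA libraries, at 109, 105 and 111 CPM, were within the EtOH range. The log2 fold change was -1.10 ± 0.10 (edgeR adjusted p = 2.29e-07).

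Snhg12 carries 3 H/ACA snoRNAs and Snord99. It stood at 42.3 CPM in the 10E IAA library and at 29.1 and 47.3 CPM in the 11D IAA libraries, against EtOH levels of 57.0 and 59.0 CPM in line 10E and 68.2 and 71.9 CPM in line 11D. The 2 IAA libraries of line 11D differ from each other more than the lines do under IAA. The untagged IAA libraries, at 49.8, 60.8 and 60.8 CPM, lie between the groups or among the EtOH ones. Its log2 fold change was -0.69 ± 0.14 (edgeR adjusted p = 0.000648).

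Snhg3, the host of the H/ACA snoRNAs Snora73a and Snora73b, fell least among those that passed. It had 44.1 CPM in the 10E IAA library and 47.3 and 52.6 CPM in the 11D IAA libraries, against 58.0 and 69.6 CPM under EtOH in line 10E and 62.2 and 61.1 CPM under EtOH in line 11D. The groups are separate but close. The untagged IAA libraries, at 66.9, 73.0 and 74.7 CPM, are at or above the EtOH ones. Its log2 fold change was -0.39 ± 0.11 (edgeR adjusted p = 0.00686), and this call is the least firm of the 7. It was lost without the 10E IAA library (-0.29, adjusted p = 0.0941) and with library totals in place of TMM (-0.06, adjusted p = 0.657). In the authors' deposited table its log2 fold change was -0.32 with an adjusted p of 0.0627, and that table's calls on the other 7 members fell on the same side of the threshold as here. Of the 986 exon bases of Snhg3, 135 are shared with Rcc1 on the same strand and 705 lie opposite Gm17300, so its count may hold reads of Rcc1.

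Snhg8, the host of Snora24 and the shortest of the measured models at 853 exon bases, was not called. It had 14.5 CPM in the 10E IAA library and 13.7 and 20.8 CPM in the 11D IAA libraries. Its EtOH levels were 19.6 and 19.1 CPM in line 10E and 18.4 and 27.2 CPM in line 11D. One IAA library exceeds 3 of the 4 EtOH libraries. The untagged IAA libraries had 21.8, 18.4 and 20.3 CPM. The log2 fold change was -0.41 ± 0.18 (edgeR adjusted p = 0.0610), about the size of the fall in Snhg3 with a larger error. It passed the test without 11D EtOH replicate 1 (-0.54, adjusted p = 0.0189), without 11D IAA replicate 2 (-0.57, adjusted p = 0.0368) and with no filter on low counts (-0.43, adjusted p = 0.0429), and with library totals it was at -0.08.

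Within each line Snhg5 and Snhg6 had the largest falls among the members. Line 10E, with 1 IAA library whose spread is assumed to be that of the other groups, had 6 of the 8 called lower, against 18.3% of all genes. Line 11D had 6 of the 8 called lower, against 23.1% of all genes. Snhg5 had log2 fold changes of -2.37 ± 0.21 in line 10E and -2.40 ± 0.15 in line 11D. Gas5 had -0.996 ± 0.17 in line 10E and -1.35 ± 0.13 in line 11D. Snhg12 was called in line 11D (-0.83 ± 0.18) and not in line 10E (-0.47 ± 0.23), and Snhg3 was called in line 10E (-0.55 ± 0.17) and not in line 11D (-0.30 ± 0.14). None of these differences between lines was itself shown: in the interaction test none of the 8 members passed and 0% of the 17904 genes were called. The interaction differences, line 10E minus line 11D, ran from -0.25 ± 0.22 for Snhg3 to 0.37 ± 0.29 for Snhg12 on the log2 scale. At an unadjusted p under 0.05 the interaction counted 872 genes and none of the members, and DESeq2 called 1 gene.

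**Figure D2:**
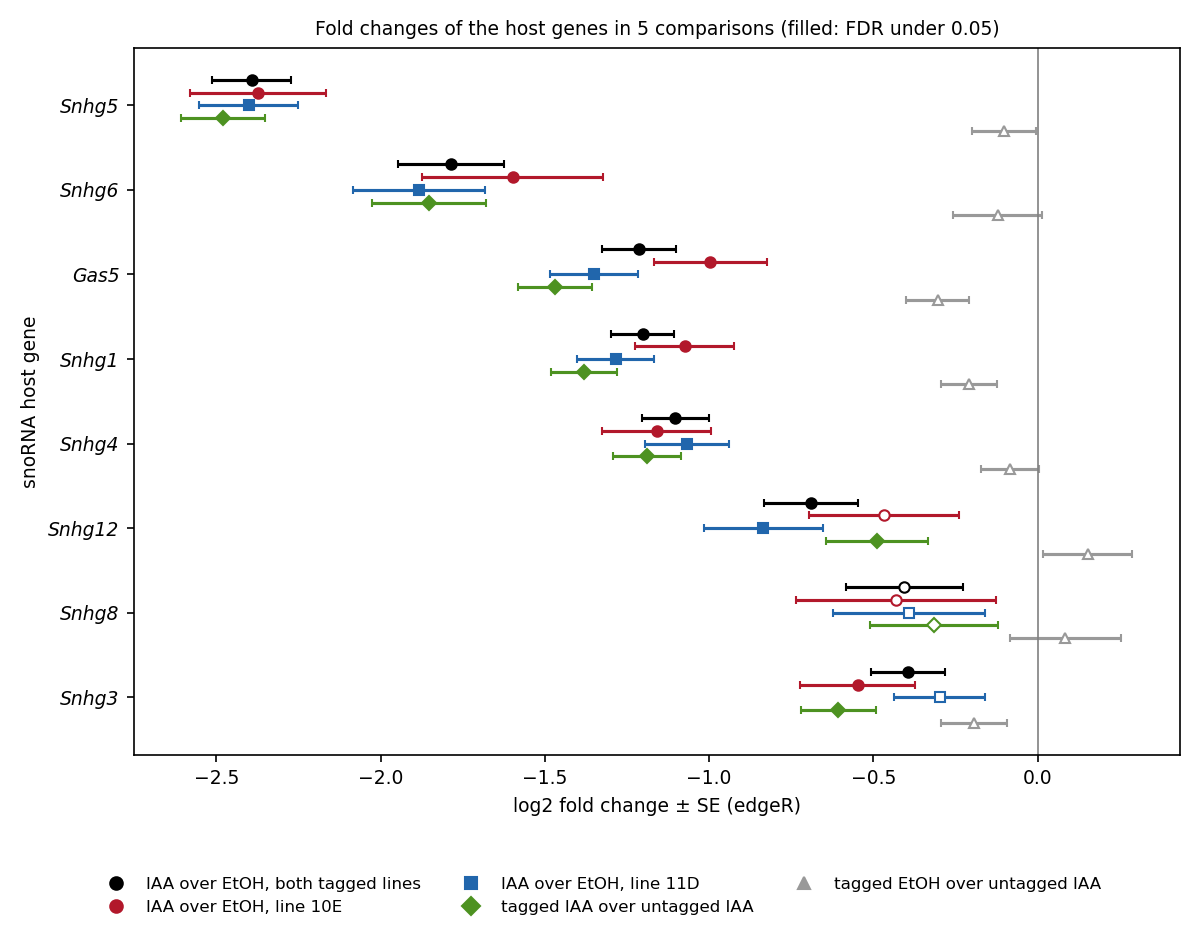
Log2 fold change with SE of each host gene in 5 comparisons, ordered by the fall in the tagged lines. Filled symbols passed a false discovery rate of 0.05 in edgeR's quasi-likelihood test, and open symbols did not. Snhg5 and Snhg6 lie farthest left under IAA, and the grey triangles for tagged EtOH over untagged IAA lie near 0.

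The lines differed before IAA in 1 member. Under EtOH, Gas5 was lower in line 10E than in line 11D by 0.57 ± 0.13 on the log2 scale (edgeR adjusted p = 0.0305), in a comparison in which 3.23% of all genes were called in either direction. Snhg6 (-0.62 ± 0.18, adjusted p = 0.0921) and Snhg1 (-0.40 ± 0.11, adjusted p = 0.0746) had differences of the same sign that did not pass in edgeR. The call on Gas5 rests on single libraries: without 10E EtOH replicate 1 the difference was -0.40 and without 11D EtOH replicate 2 it was -0.48, and neither passed.

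A comparison with untagged cells under the same IAA asked whether the low levels were seen against another line given auxin. In tagged IAA cells 7 of the 8 members were lower than in untagged IAA cells, against 27.8% of 17439 genes called lower and 27.9% higher. Snhg5 was at -2.48 ± 0.13, Snhg6 at -1.85 ± 0.17, Gas5 at -1.47 ± 0.11, Snhg1 at -1.38 ± 0.10 and Snhg4 at -1.19 ± 0.10 on the log2 scale. Snhg3 was at -0.61 ± 0.12 (edgeR adjusted p = 0.000391) and Snhg12 at -0.49 ± 0.16 (edgeR adjusted p = 0.0145), and Snhg8 did not pass at -0.32 ± 0.19. The call on Snhg12 was lost without untagged IAA replicate 3 (-0.43) and with library totals (-0.19). This comparison shares the tagged IAA libraries with the first one, and the tag and the line cannot be told apart in it.

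In these members tagged cells under EtOH were close to untagged cells under IAA. Supt16 RNA was not, at 364 to 416 CPM in tagged EtOH cells and 538 to 577 CPM in untagged IAA cells. Ssrp1 had means of 310 CPM and 315 CPM in those groups. None of the 8 members was called, against 2.29% of 17439 genes called lower and 1.27% higher in tagged EtOH cells. At an unadjusted p under 0.05 there were 2 members, Gas5 (-0.30 ± 0.10, adjusted p = 0.0861 in edgeR) and Snhg1 (-0.21 ± 0.08, adjusted p = 0.163 in edgeR). Gas5 passed in DESeq2, with library totals and without 10E EtOH replicate 2, where its difference was -0.41. The other 6 ran from -0.19 ± 0.10 for Snhg3 to 0.15 ± 0.14 for Snhg12.

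The falls were unequal, so the make-up of the host RNA pool changed. Ratios of counts within a library do not depend on the scaling between libraries. The ratio of Snhg5 to Snhg8 counts was 1.24, 1.60 and 1.06 in the 3 IAA libraries, against 4.86, 4.67, 5.56 and 4.74 in the 4 EtOH libraries and 5.17 to 6.11 in the untagged IAA libraries. The ratio of Snhg5 to Snhg3 was 0.408 to 0.464 under IAA, 1.28 to 2.11 under EtOH and 1.41 to 1.74 in untagged IAA cells. By contrast the ratio of Gas5 to Snhg1 was 1.37 to 1.42 under IAA, inside its range of 1.22 to 1.55 under EtOH.

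As a share of the counts of all 8 members, Snhg5 took 5.51% to 6.41% under IAA, 12.3% to 15% under EtOH and 12.3% to 13.4% in untagged IAA cells. Snhg3 took 13.4% to 13.8% under IAA, 6.78% to 9.81% under EtOH and 7.71% to 8.76% in untagged IAA cells. Snhg8 took 3.99% to 5.32% under IAA and 2.22% to 3.09% under EtOH. Gas5, Snhg1, Snhg4 and Snhg12 had overlapping shares in the IAA and EtOH groups. Snhg5 took less than Snhg3 in every IAA library and more in every EtOH and untagged library.

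**Figure D3:**
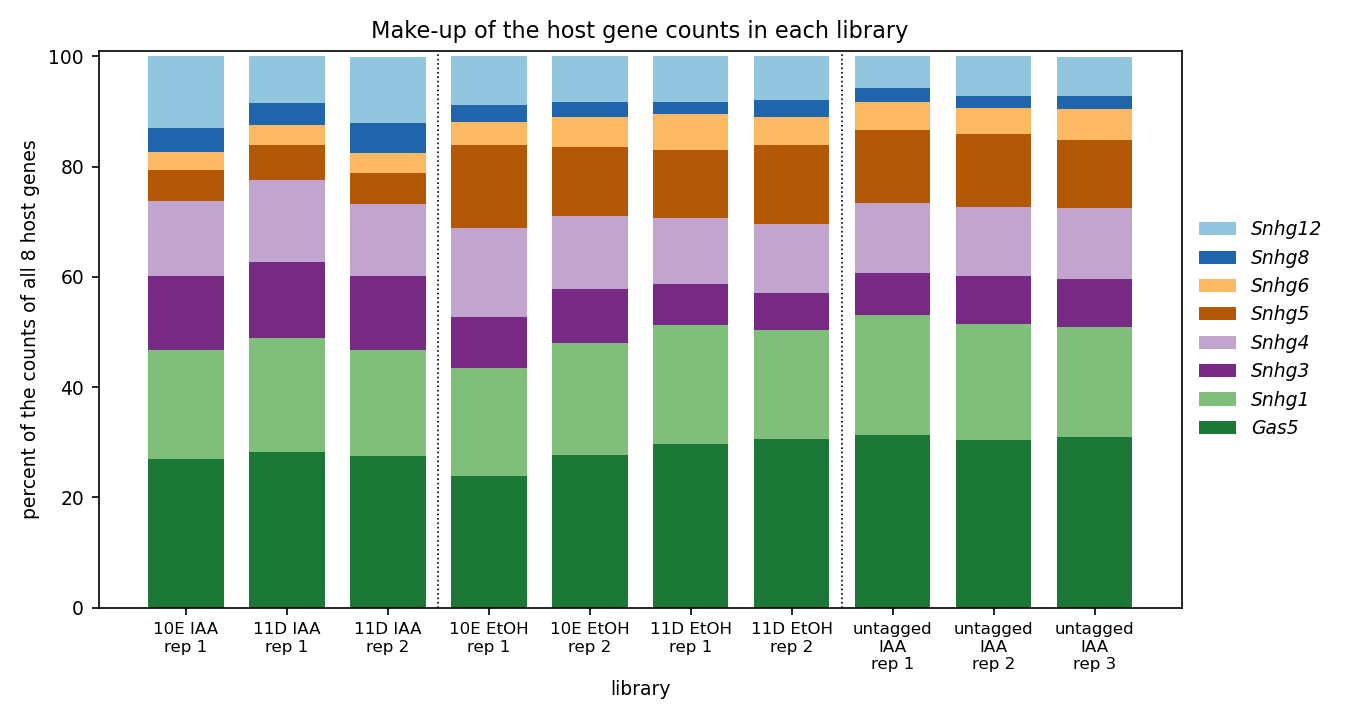
Percent of the summed counts of the 8 host genes that each gene took in each library, with tagged IAA libraries at the left, tagged EtOH libraries in the middle and untagged IAA libraries at the right. The band of Snhg5 is narrower under IAA (5.51% to 6.41%) than under EtOH (12.3% to 15%), and that of Snhg3 is wider (13.4% to 13.8% against 6.78% to 9.81%).

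Levels can be set side by side only per length, here CPM per kilobase of GENCODE M21 exon, which exists for 7 of the 8. In tagged IAA cells the order was Snhg3 (48.7 ± 4.35, SD, n = 3), Gas5 (25.9 ± 2.55), Snhg1 (23.7 ± 1.94), Snhg8 (19.1 ± 4.59), Snhg12 (16.5 ± 3.92), Snhg5 (12.0 ± 1.35) and Snhg6 (10.9 ± 1.58). In tagged EtOH cells it was Snhg3 (63.6 ± 4.96, SD, n = 4), Snhg5 (60 ± 10.1), Gas5 (57.8 ± 14.5), Snhg1 (52.6 ± 9.04), Snhg6 (36.0 ± 10.4), Snhg12 (26.6 ± 2.98) and Snhg8 (24.7 ± 4.8). Untagged IAA cells had Snhg3 (72.5 ± 4.17, SD, n = 3), Gas5 (70.1 ± 2.15), Snhg5 (64.3 ± 3.37), Snhg1 (60.3 ± 3.04), Snhg6 (38.0 ± 3.53), Snhg12 (23.8 ± 2.66) and Snhg8 (23.6 ± 1.99). Under IAA only Snhg3 stands clear of the next gene by several SDs, and each of the others differs from the next by about the larger of their SDs or less. Under EtOH each gene differs from the next by less than the larger of their SDs, apart from Snhg1 and Snhg6. Snhg5 was next to last in IAA cells and next to Snhg3 at the top in EtOH cells. The per-length level of Snhg3 depends on a short model that shares exons with Rcc1.

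The neighbours of the host genes were read to see whether whole loci had moved. Gas5 (chromosome 1, 161034422 to 161038539, plus strand, GRCm38) overlaps the gene body of Zbtb37 on the opposite strand without sharing exon bases. Zbtb37, a zinc finger gene, was at -0.00 ± 0.11 on the log2 scale (edgeR adjusted p = 0.988), and with library totals it was called higher, at 0.33. The ratio of Gas5 to Zbtb37 counts was 1.07 to 1.27 under IAA, 1.90 to 2.91 under EtOH and 2.68 to 2.96 in untagged IAA cells.

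Snhg1 (chromosome 19, 8723475 to 8726443, plus strand) starts 106 bases from Slc3a2, which is read in the opposite direction and encodes the heavy chain of an amino acid transporter. Slc3a2 fell by 0.36 ± 0.09 (edgeR adjusted p = 0.00302), less than Snhg1, and Wdr74, on its other side, fell by 0.37 ± 0.10. Neither was called with library totals, at -0.03 for Slc3a2 and -0.04 for Wdr74. The ratio of Snhg1 to Slc3a2 counts was 0.297 to 0.403 under IAA and 0.420 to 0.708 under EtOH.

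Snhg3 and Snhg12 lie on the same stretch of chromosome 4, on either side of Trnau1ap, at 132348014 to 132353686 and 132308623 to 132311024. Trnau1ap, 739 bases from Snhg12 and involved in selenocysteine incorporation, was at -0.03 ± 0.14. Rcc1, the nucleotide exchange factor for RAN that overlaps Snhg3, was at 0.08 ± 0.09, and neither passed. With library totals Rcc1 was called higher, at 0.41, and Trnau1ap was at 0.30 and not called. The ratio of Snhg3 to Rcc1 counts was 0.301 to 0.402 under IAA and 0.405 to 0.544 under EtOH. The ratio of Snhg12 to Trnau1ap counts was 1.11 to 2.06 under IAA and 1.80 to 2.81 under EtOH, so these ranges overlap. Rab42, on the far side of Snhg12, was low and rose to 2.81 CPM under IAA, against 1.36 CPM under EtOH (edgeR adjusted p = 0.0206), a call not made by DESeq2 (adjusted p = 0.0606).

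Snhg5 (chromosome 9, 88521050 to 88522929, minus strand) lies between Syncrip, an RNA-binding protein gene that fell by 0.53 ± 0.11, and Zfp949, which was at 0.20 ± 0.14 and did not pass. With library totals Syncrip was at -0.19 and not called, and Zfp949 was called higher, at 0.53. The ratio of Snhg5 to Syncrip counts was 0.0915 to 0.105 under IAA and 0.282 to 0.414 under EtOH. Snhg6 (chromosome 1, 9941959 to 9944118, minus strand) lies 41114 bases from Sgk3, a kinase gene that fell by 1.40 ± 0.20 and was called lower with library totals too, at -1.06. The ratio of Snhg6 to Sgk3 counts was 0.598 to 1.32 under IAA and 0.940 to 1.36 under EtOH, and the groups overlap. Matr3, which follows Snhg4 and encodes a nuclear matrix protein, fell by 0.24 ± 0.09 (edgeR adjusted p = 0.0412). That call was not made by DESeq2 (-0.20, adjusted p = 0.0962) or in edgeR with library totals (0.09, adjusted p = 0.402). The ratio of Snhg4 to Matr3 counts was 0.212 to 0.239 under IAA and 0.379 to 0.510 under EtOH. Beside Snhg8 (chromosome 3, 123507552 to 123508404, minus strand), Prss12 was nearly without counts. The count ratio of host to neighbour was lower in every IAA library than in any EtOH library for 5 of the 7 pairs read, those of Gas5, Snhg1, Snhg3, Snhg4 and Snhg5, and the groups overlapped for Snhg6 and Snhg12. No test of host against neighbour was made, and no background of other gene pairs was counted.

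**Figure D4:**
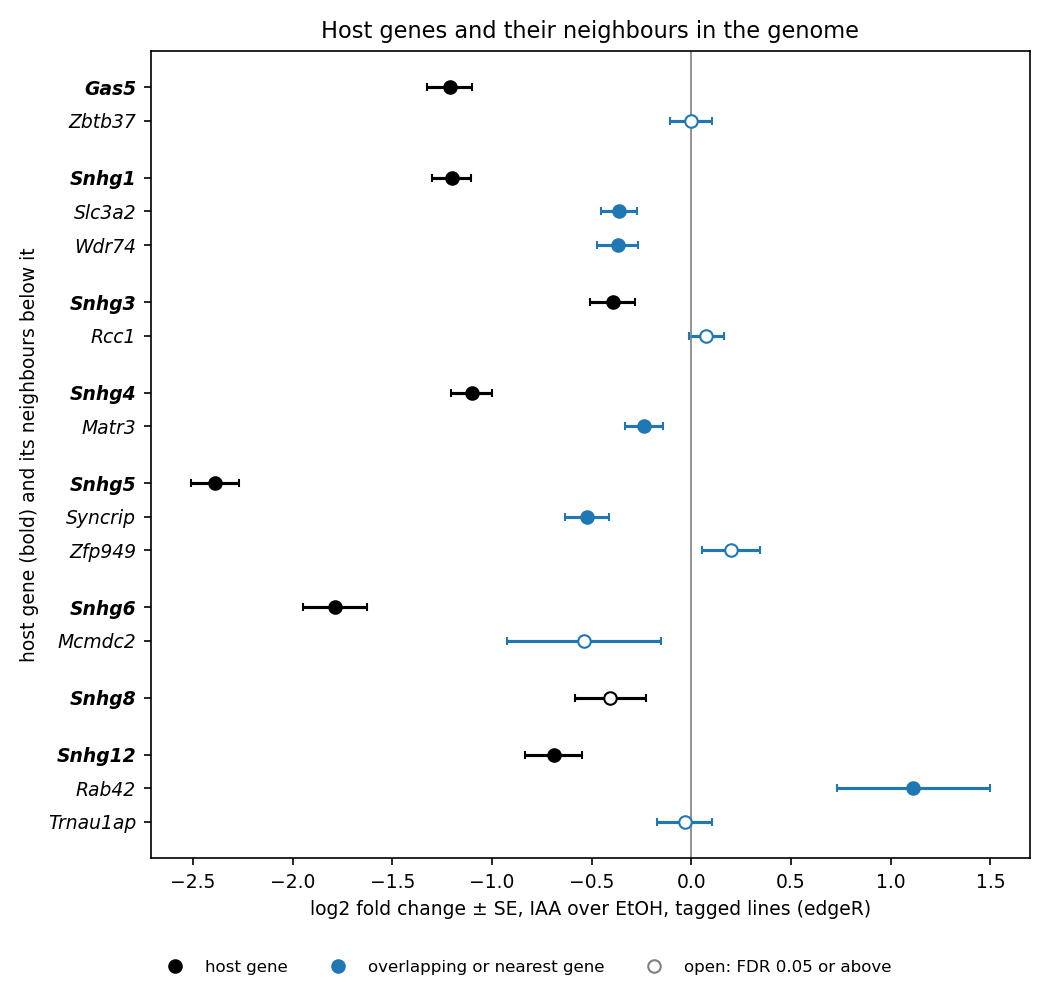
Log2 fold change of IAA over EtOH with SE in the tagged lines for each host gene (black, bold label) and, in blue, the genes that overlap it or, where none does, the nearest genes on either side, if they passed the filter on low counts. Open symbols did not pass a false discovery rate of 0.05. On this TMM scale Zbtb37, Rcc1 and Trnau1ap lie near 0 and their host genes to the left. With library totals Zbtb37 (0.33) and Rcc1 (0.41) were called higher.

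Other hosts of snoRNAs were lower as well. Of 13 further noncoding hosts, 12 had a row and 10 were tested, and 9 of these 10 were called lower and none higher, beside 28.1% lower over all genes. Their median log2 fold change was -1.27. Snhg17 fell by 1.98 ± 0.11, Zfas1, a host named for its place antisense to Znfx1, by 1.21 ± 0.12, and Snhg16 by 1.33 ± 0.14. Snhg10 did not pass at -0.20 ± 0.41, with 1.69 CPM under IAA and 1.84 CPM under EtOH.

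**Figure D5:**
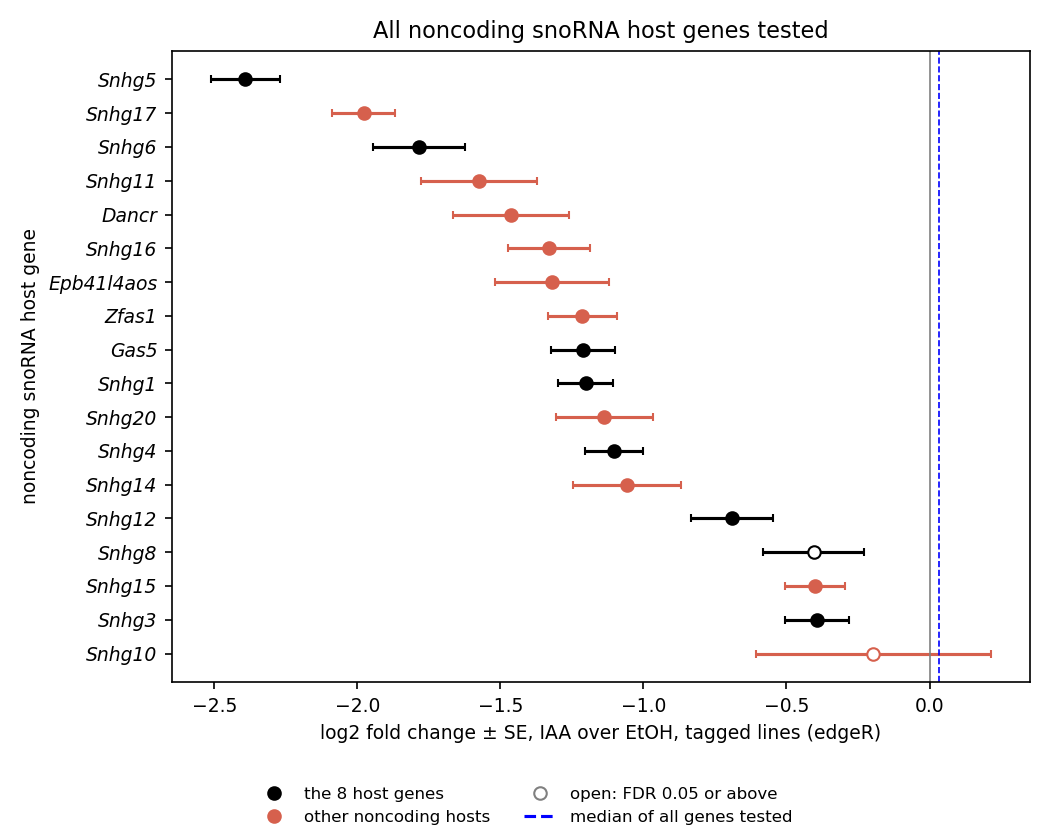
Log2 fold change of IAA over EtOH with SE in the tagged lines for the 8 host genes (black) and the 10 other noncoding hosts tested (red), in order. The dashed line is the median of all genes tested, 0.03, and every point lies to its left.

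Among protein-coding hosts, genes that enclose a GENCODE M21 snoRNA on their own strand, 133 of 218 tested (61%) were called lower and 27 higher, with a median of -0.45, beside 28.1% lower and 29.3% higher over all genes. The ribosomal protein genes among them were lower in 27 of 30, with a median of -0.71, led by Rpl6 (-1.19 ± 0.09), Rpl13a (-1.32 ± 0.10) and Rps3 (-0.998 ± 0.10). Of the others 106 of 188 were lower, led by Lpp (-2.18 ± 0.12), Eif4a2, a translation initiation helicase (-1.84 ± 0.10), and Sf3b3, a splicing factor (-1.53 ± 0.09). The called-higher hosts were led by Pcdhgb2 and Pcdhga5 of the protocadherin gamma cluster (2.09 ± 0.23 and 1.88 ± 0.23) and by Csgalnact2 (1.15 ± 0.15). Pcdhgb2 and Pcdhga5 share their last exons with the rest of that cluster, so their counts depend on how shared reads were assigned. With library totals in place of TMM the split of protein-coding hosts was 85 lower and 62 higher, beside 15.9% lower and 43.1% higher over all genes.

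Messages with a TOP tract other than those of ribosomal proteins showed 12 of 16 lower and none higher, with a median of -0.46, beside 28.1% lower and 29.3% higher over all genes. Eif4b fell by 1.64 ± 0.11, Eef1g by 1.32 ± 0.10 and Npm1 by 1.18 ± 0.12, which serve translation and ribosome assembly. Larp1, whose protein binds TOP tracts, fell by 1.01 ± 0.11. With library totals the split was 7 lower and 3 higher, beside 15.9% and 43.1% of all genes.

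Of 19 genes that encode proteins of snoRNA particles (snoRNPs) or their assembly factors, 11 had lower RNA and 3 higher, with a median of -0.35, beside the same shares of all genes, 28.1% lower and 29.3% higher. Dkc1, the pseudouridine synthase of H/ACA particles and itself a snoRNA host, fell by 1.20 ± 0.11, Tcof1, a nucleolar cofactor, by 1.05 ± 0.10, and Nop58, a core protein of C/D particles, by 0.88 ± 0.09. The genes called higher were Znhit3 (1.12 ± 0.13), Pih1d1 (0.41 ± 0.12) and Rpap3 (0.37 ± 0.12), all factors of particle assembly. With library totals 6 of these genes were lower and 4 higher, beside 15.9% lower and 43.1% higher over all genes.

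Because spliced host RNAs are described as substrates of nonsense-mediated decay, the genes of that pathway were read too. Among 18 factors, 9 fell and 1 rose, beside 28.1% lower and 29.3% higher over all genes, and the median log2 fold change was -0.31. Rbm8a (-1.37 ± 0.10) and Casc3 (-1.12 ± 0.10), both of the exon junction complex, and the kinase Smg1 (-0.78 ± 0.09) were lowest in adjusted p, while Magoh rose by 0.36 ± 0.12. Upf1, the central helicase, did not pass at -0.21 ± 0.13. Of 10 protein-coding transcripts described as substrates 5 were higher and 2 lower, where 29.3% of all genes were higher and 28.1% lower. They include Atf3 (3.54 ± 0.22), Gadd45b (1.53 ± 0.14) and Map3k14 (1.16 ± 0.20) higher, and Atf4 (-1.48 ± 0.11) and Upp1 (-0.87 ± 0.09) lower. With library totals 7 factors were lower and 6 higher, and 6 substrates were higher and 2 lower, beside 15.9% lower and 43.1% higher over all genes. RNA half-lives were not measured, so synthesis and decay of the host RNAs cannot be told apart.

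How the members varied together was read over all 10 libraries, and again without the tagged IAA libraries, which were the lowest for 7 of the 8 members. Over all 10, Pearson's r of log2(CPM + 1) was 0.99 for Gas5 and Snhg1 and 1.00 for Snhg4 and Snhg5, and was lowest for Snhg3 and Snhg8, at 0.56. Among the 7 libraries other than tagged IAA, r was 0.97 for Gas5 and Snhg1, 0.86 for Gas5 and Snhg6, 0.85 for Snhg4 and Snhg5 and -0.32 for Snhg3 and Snhg8. These are descriptions over libraries that share lines and depth. Searching 9193 genes with a mean of at least 10 CPM, the genes most like each member were Rps27l and Nectin3 for Gas5 (r = 0.99 and 0.99), Zfp229 and Nexmif for Snhg1 (0.99 and 0.99), Exoc4 and Nsrp1 for Snhg4 (1.00 and 0.99), and Fxr1 and Cd9 for Snhg5 (1.00 and 1.00). For Snhg6 they were Sptbn1 and Stt3b (0.99 and 0.99), for Snhg12 Ttll4 and Jrk (0.97 and 0.95), for Snhg3 Stx8 and Terf1 (0.97 and 0.96), and for Snhg8 Senp1 and Mrpl44 (0.92 and 0.90). All of these were computed over 10 libraries, and Snhg8 had the least close partners. The partners were picked as the closest over those 10. Among the 7 libraries other than tagged IAA, their r ran from 0.71 (Snhg8 and Mrpl44) to 0.98 (Gas5 and Rps27l). Snhg5 and Cd9 were at 0.79 there, and Snhg12 was at 0.81 with both of its partners.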

How the data were processed

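RNA of 10 libraries of mouse embryonic stem cells was analysed. The deposited table gives whole-number counts per gene symbol, made by the authors without normalization, per the file headers. STAR, deepTools and mm10 stand in the submitters' processing notes, with versions, counter, annotation and strand setting not given in the sources used here. The authors' deposited DESeq2 table (log2 fold change, standard error, adjusted p-value) served for description only. Labels exist for 11 samples, while the design text speaks of 12 libraries. The columns coded TIR1 were read as the untagged line.

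Counts were tested in R 4.3.3 with edgeR 4.0.16 (TMM, filterByExpr, glmQLFit, glmQLFTest, Benjamini-Hochberg over all genes tested, false discovery rate 0.05), after a check on simulated counts with known changes. Alternatives used DESeq2 1.42.0, other scalings and left-out libraries. Levels are CPM, TMM-scaled over 10 libraries. Positions and snoRNAs came from GENCODE M21 (GRCm38) and promoters from RefSeq GRCm38.p6. Other genes named were, per list and direction, up to 3 called genes with the smallest adjusted p, the 2 genes most correlated with each member, neighbours and hosted snoRNAs; Snhg10, Larp1, Upf1 and Snhg11 were added after their values were seen. One gene next to a member is not reported here. The members and lists were chosen with earlier results of these data known.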

Additional observations from a re-analysis of the deposited data

Results flagged for a closer look

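Snhg8 in 11D EtOH replicate 2 stood apart from the other EtOH libraries of the tagged lines: at 27.2 CPM, against 18.4 to 19.6 CPM in the other 3, its gap to the nearest library was 0.854 of the group's range, above Dixon's 95% critical value for 4 libraries. Chance flags about 1 in 20 such groups, and 8 host genes were looked at in this way. Without that library the log2 fold change of Snhg8, IAA over EtOH, was -0.22 (edgeR adjusted p = 0.372).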

How the results depend on the processing

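The calls on Gas5, Snhg1, Snhg4, Snhg5, Snhg6 and Snhg12 in IAA over EtOH held under all 16 alternatives run, with Snhg12 closest to the threshold at an adjusted p of 0.0470 (library totals). The number of members called lower was 6 to 8 over them. Genes called lower numbered 5034 in the reported test and 2851 with library totals. For tagged IAA over untagged IAA, genes called lower numbered 4843 and, with library totals, 3006. Whether the replicate numbers pair the libraries could not be settled. Correlations of same-numbered deviations ran from -0.218 to 0.260 and exceeded 0.1 in 2 of 12 pairs. Both were line 11D under EtOH against line 11D under IAA, at 0.260. They are mirror images, since each of those groups has only 2 libraries. With a replicate block, Snhg12 in tagged IAA over untagged IAA was at -0.38 and not called, tagged EtOH over untagged IAA had 142 genes called higher, against 222 without the block, and Snhg8 in the interaction was at 0.14, against -0.04.

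The interaction had 0 genes called in the reported test, 1 lower with DESeq2, 15 lower and 12 higher with no filter on low counts, and 0 to 2 lower when single libraries were left out. In it Snhg8 turned to 0.0282 with library totals and ran from -0.40 to 0.35 with libraries left out, and Snhg5 turned to -0.0465 with no filter and ran from -0.15 to 0.18. The interaction without the 10E IAA library could not be run.

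For line 10E over 11D under EtOH, the members called lower (1 as reported) were 2 with no filter and 0 to 2 with libraries left out. Genes called lower (349) were 229 with DESeq2 and 58 to 493 with libraries left out, and genes called higher (229) were 448 with no filter and 21 to 541 with libraries left out. Snhg3 ran from -0.0521 to 0.18, Snhg4 from -0.19 to 0.00756 and Snhg8 from -0.49 to 0.0889. For tagged EtOH over untagged IAA, members called lower (0) were 1 with library totals, 1 with DESeq2 and 0 to 1 with libraries left out. Genes called lower (400) were 715 with library totals, 723 with no filter and 66 to 546 with libraries left out; genes called higher (222) were 346 with DESeq2, 643 with no filter and 17 to 509 with libraries left out. Snhg8 there ran from -0.0956 to 0.19. Without the 2 EtOH libraries richest in the ribosomal RNA row CT010467.1, chosen after seeing the data, Snhg8 under IAA over EtOH was at -0.56 (adjusted p = 0.0202, edgeR). Where a call was lost, the cause was not tested. Snhg6 and Snhg8, with 43 to 322 counts in IAA libraries, have the widest counting error.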

Other observations

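Set out by the class of snoRNA that their hosted genes are named for, hosts with C/D names alone had log2 fold changes of IAA over EtOH of -2.39 (Snhg5), -1.79 (Snhg6), -1.21 (Gas5), -1.21 (Zfas1), -1.20 (Snhg1) and -1.06 (Snhg14). Hosts with H/ACA names alone had -1.46 (Dancr), -1.10 (Snhg4), -0.41 (Snhg8), -0.40 (Snhg15) and -0.39 (Snhg3). Snhg12, with 3 H/ACA names and 1 C/D name, was at -0.69. Other tested hosts have no snoRNA with a class name, or no entry in the annotation, and are in neither set. These were Snhg17 (-1.98), Snhg11 (-1.58), Snhg16 (-1.33), Epb41l4aos (-1.32), Snhg20 (-1.14) and Snhg10 (-0.20), so the listing by class is partial. The sets overlap in their values, with Dancr and Snhg4 lying among the C/D hosts. Gas5, Snhg1, Snhg4, Zfas1 and Snhg14 also hold snoRNA genes without a class name, Mir1949 in Snhg4 and 191 of 208 in Snhg14. The grouping was made after the values were seen, so no test was run.

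Snhg11, a further noncoding host, had means of 7.57 CPM in tagged IAA cells, 22.7 CPM in tagged EtOH cells and 49.6 CPM in untagged IAA cells. It was singled out after its values were seen.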
